A study of Mus musculus with 6 samples.

Results

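Cycling myogenic progenitors are described here as they appear in single-cell RNA sequencing of regenerating mouse tibialis anterior muscle (TAM). A cell was counted as myogenic when at least 2 of the 6 genes *Pax7*, *Myf5*, *Myod1*, *Cdh15*, *Chrna1* and *Fgfr4* had a value above 0 and when *Pdgfra*, a marker of fibro-adipogenic progenitors (FAPs), and *Ptprc*, the leukocyte antigen, were both at 0. It was counted as cycling when at least 2 of the 6 genes *Mki67*, *Top2a*, *Cdk1*, *Birc5*, *Cenpf* and *Ccna2* were also above 0. Of 11207 cells used, 376 met the myogenic conditions and 93 of these also met the cell cycle condition, 26 in control muscle at 5 days post-injury (dpi), 58 in hypothyroid muscle at 5 dpi, 2 in control muscle at 14 dpi and 7 in hypothyroid muscle at 14 dpi. None was found in uninjured muscle of either diet. The cells were thus selected on the measured values of these genes, so their levels are given as a description of the choice.

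The study compared control and hypothyroid male mice of 3 to 5 months, with 1 library for each of 2 diets and 3 times, and the cells of 3 mice were pooled in each library. All groups were of B6;129 background with the allele tm1(Fucci2aR)Jkn at Gt(ROSA)26Sor, a reporter of the cell cycle, and by the methods the mice used for sequencing lacked the *Pax7*-Cre that would switch it on, so the reporter took no part in choosing cells. Hypothyroid mice ate an iodine-deficient diet with 0.15% propylthiouracil (PTU), which blocks thyroid hormone synthesis, from 3 weeks before injury onwards, and control mice ate the matched diet without PTU. The right TAM was injured with cardiotoxin (50 µg/ml) and taken at 5 or 14 dpi, whereas the muscle at 0 dpi was not injured. Whole-muscle suspensions were cleared of red and dead cells and were not sorted for muscle stem cells. With 1 pooled library per group there was no replicate, so no difference between groups was tested. All intervals below are 95% intervals of counting error only and do not cover differences between mice or between preparations.

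Muscle stem cells lie quiescent along the fibre and express *Pax7*. After injury they activate, express *Myf5* and *Myod1*, and divide as myoblasts; the progeny switch on *Myog*, leave the cell cycle and fuse into new fibres. Thyroid hormone acts through nuclear receptors that regulate genes such as *Myod1* and *Klf9*, and cells in S phase copy DNA with the MCM helicase and PCNA before cyclin-dependent kinase 1 drives them through G2 and mitosis.

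The first runs of columns held 2283742 to 23496452 unique molecular identifiers (UMIs, captured RNA molecules) per library, with a median of 3633.5 to 8055 per cell. Only the first run of alphabetically ordered barcodes in each file was used, and whether it belongs to the labelled condition could not be checked. Cells of some first runs stood again among the later columns of a file of another condition: 7 of the 26 cycling cells of control muscle at 5 dpi, in the file of uninjured hypothyroid muscle, and 3 of the 7 of hypothyroid muscle at 14 dpi, in the file of uninjured control muscle. Most diet ratios of the gene lists without them are given after the account of the 5 dpi comparison, and those that changed call or direction are named there. A further 12 barcodes occurred in more than 1 first run. No doublets were removed, and 13 of the 93 cycling cells held at least 5 UMIs of at least 2 markers of another cell type.

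The detected genes of the rule are given as a description of the choice, and they cannot check the label. Among the 93 cells, *Chrna1*, the acetylcholine receptor subunit of myogenic cells, had a UMI in 85, *Cdh15*, the myoblast cadherin, in 79 and *Myf5* in 51. *Fgfr4* was detected in 60, *Myod1* in 47 and *Pax7* in 39. Of the cell cycle genes, *Birc5*, a subunit of the chromosomal passenger complex, had a UMI in 82 cells, *Top2a*, the topoisomerase that untangles sister DNA, in 77, *Mki67* in 74, *Cdk1* in 68, and *Cenpf* and *Ccna2* in 61 each. On the cell cycle side 8 cells had exactly 2 of the 6 genes, just inside the limit, and 38 myogenic cells had 1 gene, just outside it. Farther from the limit, 31 cells had 5, 26 had all 6, and 245 myogenic cells had none. On the myogenic side 15 cells had exactly 2 genes and 11 cells that met the other conditions had 1. A UMI of *Pdgfra* kept out 13 further cells and a UMI of *Ptprc* 18.

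The chosen cells were deep. The median was 17957 UMIs (3151 to 41523) in control muscle at 5 dpi and 20500.5 (4207 to 48320) in hypothyroid muscle, against 9018 and 11907 in the non-cycling myogenic cells of the same libraries. The rule counts detected genes, so depth entered the choice.

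Markers of other cell types were read in the same 93 cells. At least 2 FAP markers had a UMI in 62 cells and at least 2 mural markers in 18, but at 5 UMIs or more these counts were 9 and 1. The endothelial sum was 327.7 CPM (UMIs of a gene scaled to a common total of UMIs in each pool of cells) in the control cells at 5 dpi and 12.1 CPM in the hypothyroid cells, and it was 9.297 and 11.13 CPM without the cells that held at least 5 UMIs of at least 2 markers of another type, called cells of mixed markers below. The erythroid sum was 344 UMIs in the control cells, with 96.33% of the 218 *Hbb-bs* UMIs in 1 cell, and 0 in the hypothyroid cells. The macrophage sum was 18.52 CPM in control with 4 of 6 markers at 0, and 192.9 CPM in hypothyroid with 1 of 6 at 0. The FAP sum was 1192.5 CPM in control with 2 of 8 markers at 0 and 584.8 CPM in hypothyroid cells, and the mural sums were 498.1 and 519 CPM. The tenocyte sums were 122.2 and 33.29 CPM, a ratio of 0.2724 that was 1.054 without cells of mixed markers. Lymphoid, glial and granulocyte sums stayed between 0.7566 and 11.11 CPM in both.

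Promoters of cell cycle genes are known for a few short motifs, and 4 promoters are shown because their genes are a cell cycle gene of the rule (*Top2a*, *Cdk1*), the gene outside it that led the cycling against non-cycling contrast (*Ube2c*) and an S-phase gene (*Mcm7*). Each line holds the 250 bases before the transcription start from RefSeq on GRCm38.p6, a build other than the one the reads were aligned to, on the strand of the gene. Capitals mark TTTGAA (the core of the cell cycle homology region), CCAAT (the box of NF-Y), and TTCCCGC or TTGGCGC (forms of the E2F site), each on either strand, so that ATTGG is CCAAT on the opposite strand.
Top2a, chr11:99024190-99024439, minus strand: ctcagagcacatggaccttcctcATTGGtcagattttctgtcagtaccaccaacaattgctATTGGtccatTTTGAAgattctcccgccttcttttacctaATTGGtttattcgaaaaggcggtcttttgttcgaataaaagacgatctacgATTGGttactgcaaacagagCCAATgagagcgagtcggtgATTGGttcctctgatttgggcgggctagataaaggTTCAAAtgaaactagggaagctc
Cdk1, chr10:69352913-69353162, minus strand: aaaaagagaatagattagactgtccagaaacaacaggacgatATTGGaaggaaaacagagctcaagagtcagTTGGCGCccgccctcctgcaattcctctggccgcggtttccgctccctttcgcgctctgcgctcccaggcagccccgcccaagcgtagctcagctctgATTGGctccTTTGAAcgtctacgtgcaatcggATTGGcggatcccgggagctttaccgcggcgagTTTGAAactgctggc
Ube2c, chr2:164769679-164769928, plus strand: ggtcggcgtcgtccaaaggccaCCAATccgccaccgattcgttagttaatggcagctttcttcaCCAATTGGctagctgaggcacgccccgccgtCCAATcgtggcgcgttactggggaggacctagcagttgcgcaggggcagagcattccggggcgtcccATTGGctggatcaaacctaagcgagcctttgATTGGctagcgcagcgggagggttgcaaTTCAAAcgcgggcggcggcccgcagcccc
Mcm7, chr5:138171884-138172133, minus strand, the first of 2 listed starts: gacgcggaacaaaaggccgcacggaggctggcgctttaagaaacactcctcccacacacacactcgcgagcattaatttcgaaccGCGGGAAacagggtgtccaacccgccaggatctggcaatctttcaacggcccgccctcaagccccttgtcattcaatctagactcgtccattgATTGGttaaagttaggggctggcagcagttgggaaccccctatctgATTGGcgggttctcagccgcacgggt

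The windows of the G2/M genes held CCAAT in 31 of 41 genes (75.61%), TTTGAA in 16 (39.02%) and an E2F form in 3 (7.317%). Those of the S-phase genes held CCAAT in 15 of 28 (53.57%), an E2F form in 11 (39.29%) and TTTGAA in 3 (10.71%). Over all 27025 genes with a promoter in the table the shares were 37.49% for CCAAT, 18.26% for TTTGAA and 6.45% for an E2F form. A window with both TTTGAA and CCAAT was found for 15 of the 41 G2/M genes and for 6.453% of all genes. Of the 6 cell cycle genes of the rule, 5 had an entry, 4 with CCAAT and 3 with TTTGAA. These are matches of letters and not sites shown to be bound, and CCAAT on the opposite strand (ATTGG) can share bases with TTGGCGC.

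With all cells of the first runs, the share of myogenic cells that were cycling was about the same on both diets at 5 dpi and lower at 14 dpi. On the hypothyroid diet the fall rested in part on cells listed in a second file, as given below. It was 33.33% in control muscle (26 of 78 cells, Clopper-Pearson interval 23.06% to 44.92%) and 35.58% in hypothyroid muscle (58 of 163, 28.25% to 43.45%) at 5 dpi. At 14 dpi it was 3.636% in control (2 of 55, 0.4435% to 12.53%) versus 12.73% in hypothyroid muscle (7 of 55, 5.274% to 24.48%). The intervals of the diets overlapped at both times. In uninjured muscle the counts were 0 of 13 and 0 of 12, which allow shares of up to 23.08% and 25%. No cycling cell was detected there, and smaller shares could have been missed at this number of cells.

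These shares were lower when the cell cycle genes were read at equal depth, with every cell drawn down to 2000 UMIs. They were then 19.74% in control (15 of 76) versus 16.15% in hypothyroid muscle (26 of 161) at 5 dpi, and 1.961% (1 of 51) and 7.407% (4 of 54) at 14 dpi. With all UMIs but without cells listed in a second file, 19 of 62 myogenic cells were cycling in control muscle at 5 dpi. In hypothyroid muscle at 14 dpi 4 of 17 were, in place of 7 of 55, so most of its myogenic cells were left out. Its share was then nearer to the hypothyroid share at 5 dpi, where 58 of 163 cells were cycling under both settings. For comparison, *Pdgfra*-positive cells without *Ptprc* met the same cell cycle condition in 32.32% of 263 cells in control and 25.49% of 565 in hypothyroid muscle at 5 dpi. At 14 dpi they met it in 0.4587% of 1090 and 0.157% of 637. The latter share was below the myogenic one in the hypothyroid library (interval up to 0.8715%, against 5.274% and above). Median depths there were 10070 and 13491 UMIs. *Ptprc*-positive cells without *Pdgfra* met the condition in 9.054% of 1469 and 8.385% of 811 at 5 dpi. At 14 dpi they met it in 0.9852% of 203 and 3.614% of 249. The interval of the latter (1.666% to 6.75%) overlapped the myogenic one.

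**Figure D1:**
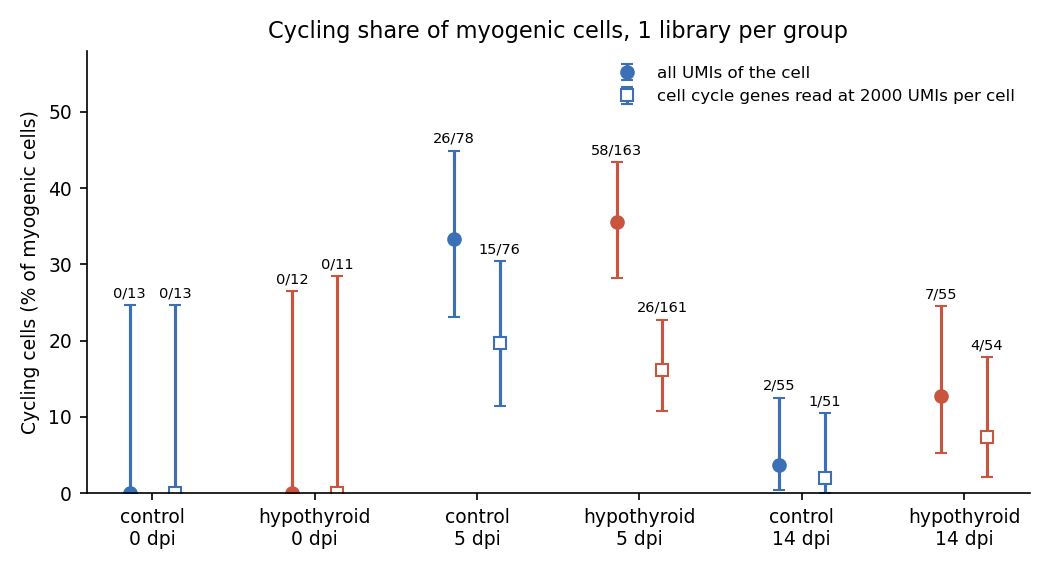
Share of myogenic cells that met the cell cycle condition (%, vertical axis) in each of the 6 libraries, with all UMIs (filled circles) and with the cell cycle genes read at 2000 UMIs per cell (open squares); bars are 95% Clopper-Pearson intervals and labels give cells. At 5 dpi both diets sit near a common level, 33.33% and 35.58%, and at 14 dpi the 2 intervals overlap.

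As a share of all cells with all UMIs read, the libraries of 5 dpi differed beyond counting error, but at equal depth the cycling counts were close. The myogenic cells as a whole moved with the cycling ones. Cycling cells made up 1.071% of all cells in control (0.7007% to 1.565%) and 2.691% in hypothyroid muscle (2.05% to 3.466%), and all myogenic cells made up 3.213% and 7.564%. The median depth of all cells was 3847 UMIs in control versus 8055 in hypothyroid muscle, and a deeper cell passes the 2-gene conditions more easily. With the whole rule applied at 2000 UMIs, 8 cycling and 46 myogenic cells were left in control (588 shallower cells of 2428 left out). In hypothyroid muscle 10 and 68 were left (318 of 2155 left out). Whether the libraries differed in the abundance of these cells was not tested.

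Within the 93 cells the S-phase list (33 genes of DNA replication) and the G2/M list (48 genes of spindle, kinetochore and mitotic exit) varied widely. In control muscle at 5 dpi the S-phase sum of a cell ranged from 0 to 9053.7 CPM with a median of 2041.9, and the G2/M sum from 634.7 to 19174 with a median of 4439.1. In hypothyroid muscle they ranged from 159.3 to 5877.9 with a median of 1420 and from 237.7 to 18247.6 with a median of 4003.5. The ranges overlapped on both lists, but the highest S-phase sums were all in control cells. Spearman's rho between the sums across cells was 0.3976 over 26 control cells and 0.1975 over 58 hypothyroid cells; cells of 1 library are not replicates, and both sums share each cell's total. The S-phase sum exceeded the G2/M sum in 22 of the 93 cells, 6 of 26 and 13 of 58 at 5 dpi. No phase was called from these sums.

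**Figure D2:**
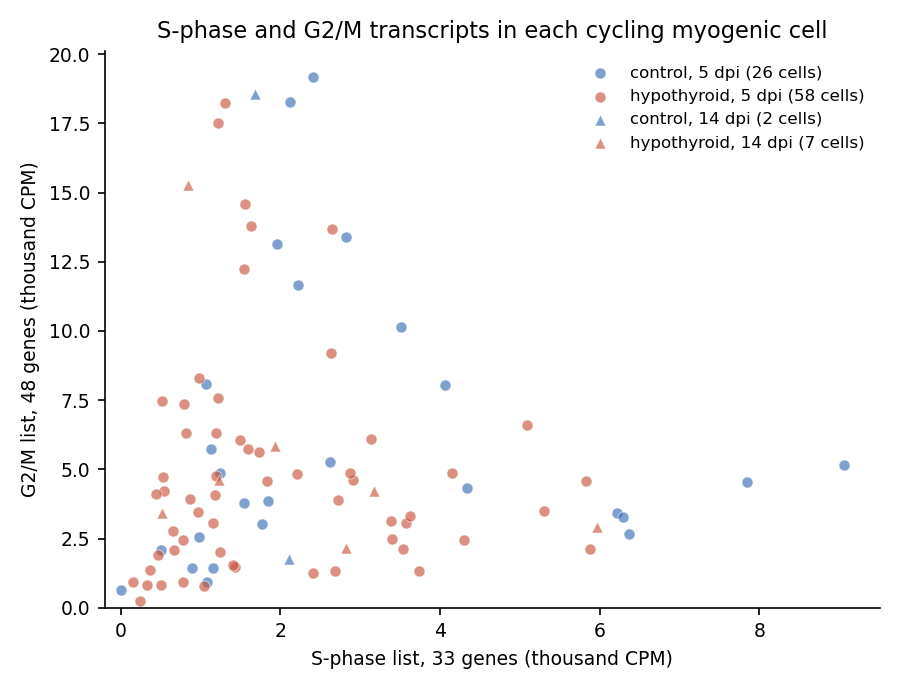
Sum of the S-phase list (horizontal axis, units of 1000 CPM) against the sum of the G2/M list (vertical axis, units of 1000 CPM) in each of the 93 cycling myogenic cells; circles are 5 dpi, triangles 14 dpi, blue control and red hypothyroid. Cells spread along both axes with few high on both, and the 58 hypothyroid cells overlap the 26 control cells.

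Against the non-cycling myogenic cells of their own library, the cycling cells were higher in replication, mitosis and chromatin genes. They were lower in the summed sarcomere list and in the summed list of CDK inhibitors, RB and p53 genes. The cell cycle condition set this contrast, so the following values describe the choice and support nothing further. With at least 50 UMIs over both pools, 3789 genes were compared in control muscle, of which 147 (3.88%) were at least 2-fold higher and 159 (4.2%) at least 2-fold lower in the cycling cells. In hypothyroid muscle 5848 genes were compared, 207 (3.54%) higher and 152 (2.6%) lower. Of 3731 genes compared in both, 76 (2.04%) were higher and 21 (0.563%) lower in both.

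Every G2/M gene compared in control muscle was at least 2-fold higher (24 of 24, median log2 ratio 3.44), as were 30 of 32 in hypothyroid muscle (3.65). The S-phase list had 12 of 13 and 20 of 21 higher, with medians of 2.10 and 2.18. Over all genes the median log2 ratio was -0.02 in control and -0.10 in hypothyroid muscle. *Ube2c*, which adds ubiquitin to mitotic cyclins, was at 409.2 CPM in cycling and 10.43 CPM in non-cycling control cells, and at 317.8 and 9.699 CPM in hypothyroid cells. The ratios were 39.2 (17.74 to 108.1) and 32.8 (19.31 to 60.44). *Ccnb1*, the mitotic cyclin, was at 105.5 CPM against 0 UMIs in control and at 71.87 against 1.386 CPM in hypothyroid cells. *Pclaf*, a PCNA-binding factor, stood at 335.2 against 20.86 CPM and at 231.5 against 3.464 CPM. *Cenpa*, the histone of the centromere, was 22.9-fold and 13.95-fold higher, and *Racgap1*, needed for cytokinesis, 15.12-fold and 22.28-fold. *Cenpe*, *Cdca8*, *Tpx2*, *Kif11* and the linker histone *H1f5* completed the 10 genes most separated in both libraries. *H1f5* was at 159.2 CPM in cycling control cells and at 105.2 CPM in cycling hypothyroid cells, against 5.216 and 0.6928 CPM.

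Genes that prepare chromatin for copying were higher too, 6 of 7 in control cells and, on the hypothyroid side, 6 of 9. *H2az1*, a variant histone, was 3.33-fold and 3.70-fold higher and *Hmgb1* 2.66-fold and 2.63-fold. Of the cyclins and kinases of G1, none of the 4 genes compared in control or the 5 in hypothyroid muscle was 2-fold higher, and 1 was 2-fold lower in control. *Ccnd1*, cyclin D1, was 1.51-fold and 1.65-fold higher and *Cdk4* 1.55-fold and 1.63-fold.

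Sarcomere genes were the list with the most lower members. In control muscle 18 of 20 sarcomere genes were at least 2-fold lower in cycling cells and the list's sum was 0.2209 of the non-cycling one (0.2098 to 0.2326), while in hypothyroid muscle 4 of 16 genes were lower and the sum ratio was 0.8483 (0.8094 to 0.8891). *Acta1*, skeletal actin, was at 174.1 CPM in cycling and 2152 CPM in non-cycling control cells, and at 52.96 and 135.8 CPM in hypothyroid cells. *Myl1*, a myosin light chain, was at 94.44 against 1076 CPM in control and 30.26 against 76.9 CPM in hypothyroid muscle. The non-cycling pools differed more than the cycling ones: their sarcomere sum was 14867.8 CPM in control versus 2791.4 CPM in hypothyroid muscle, against 3284.9 and 2368 CPM in the cycling cells. The list of CDK inhibitors, RB and p53 genes had a cycling over non-cycling ratio of 0.452 (0.4148 to 0.4921) in control and 0.7619 (0.7178 to 0.8086) in hypothyroid muscle. *Cdkn1c*, the inhibitor p57, was at 203.7 against 1386 CPM in control and 247.4 against 685.9 CPM in hypothyroid cells. Not every inhibitor followed the sum: *Cdkn1a*, whose levels are given below, was lower in cycling control cells but higher in cycling hypothyroid cells. The growth factor receptor *Fgfr1* was 0.428 and 0.528 of the non-cycling level. *Hspb1*, a small heat shock protein, was at 0.282 and 0.337 of it, and *Tnnt1*, slow troponin T, at 0.381 and 0.358. *Mir100hg*, *Ankrd10*, *Dusp10* and *Iffo1* were the other genes that led in this direction.

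**Figure D3:**
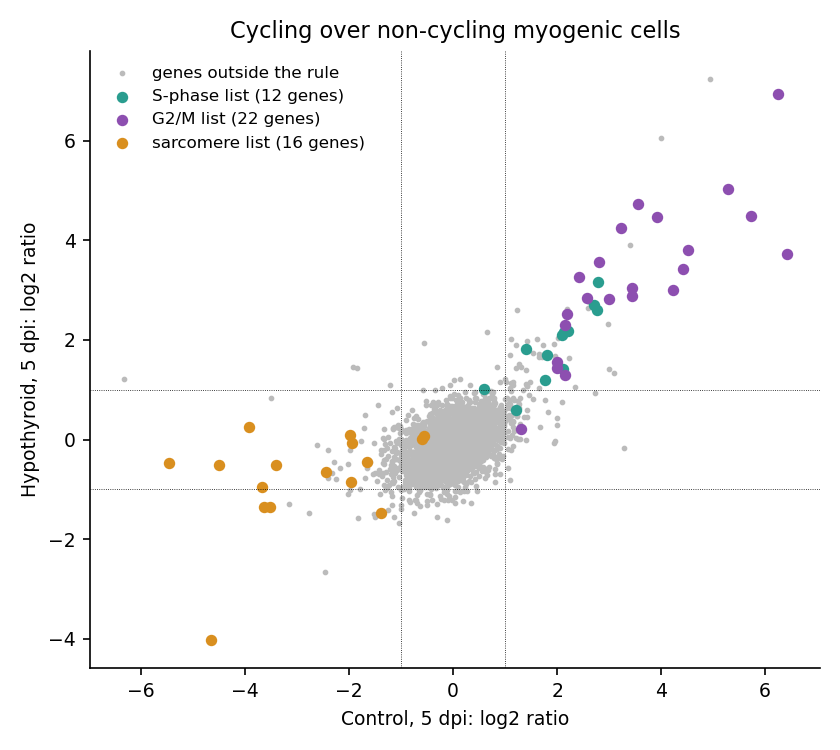
Log2 ratio of CPM in cycling over non-cycling myogenic cells at 5 dpi, in control (horizontal axis) and hypothyroid muscle (vertical axis), for genes outside the rule with at least 50 UMIs in both libraries and a finite ratio; dotted lines mark 2-fold. S-phase (green) and G2/M genes (purple) lie high on both axes, whereas sarcomere genes (orange) reach far lower ratios in control than in hypothyroid muscle.

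The comparison of diets within the cycling cells asks what differed in dividing progenitors when thyroid hormone was lacking. At 5 dpi the hypothyroid cells held fewer S-phase and G2/M transcripts per total, fewer transcripts of *Myog* and of the thyroid hormone target *Klf9*. They held more *Cdkn2a*, ribosomal protein and immune transcripts than the control cells, and 1 control cell held most of the control *Myog* UMIs. Of the 6 myogenic genes of the rule, whose levels describe the choice, *Myf5* was higher and the others were lower. Of 4864 genes compared, 157 (3.23%) were at least 2-fold higher and 476 (9.79%) at least 2-fold lower in hypothyroid cells. The median log2 ratio of all genes was -0.28, a shift that also ran through the cells of the same libraries without a UMI of any of the 6 myogenic genes (-0.44), the non-cycling myogenic cells (-0.19) and the cycling *Pdgfra*-positive cells (-0.22). In these 3 kinds of cells 4.15%, 3.72% and 3.08% of genes were 2-fold higher and 21.1%, 8.21% and 7.84% lower. When ratios were divided by the median, the split turned to 344 higher and 167 lower, and with ribosomal protein and mitochondrial genes left out of the totals it was 212 and 359. With every cycling cell drawn down to 2000 UMIs, 52 genes were higher and 21 lower. Fewer genes reached the minimum of UMIs at that depth, and their number is not given. The thinned counts therefore cannot be set against those out of 4864 genes. Values below are ratios of CPM, hypothyroid over control, and are to be read against the median ratio of 0.8218.

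The S-phase list was at 2725.7 CPM in control versus 1696.9 CPM in hypothyroid cycling cells, a ratio of 0.6226 (0.5827 to 0.6653), and 0 of 27 genes were 2-fold higher and 7 lower, with a median log2 ratio of -0.71. The same list had a ratio of 0.6218 in non-cycling myogenic cells, 0.7229 in cycling *Pdgfra*-positive cells and 0.609 in cells without a myogenic gene, so the other kinds of cells were lower too. *Pcna*, the sliding clamp, went from 320.3 to 172.5 CPM (0.538, 0.44 to 0.66), *Rrm2*, which makes deoxynucleotides, from 216.6 to 113.5 CPM (0.524) and *Mcm7*, of the helicase whose promoter is shown above, from 155.5 to 77.92 CPM (0.501). *Dut*, which clears dUTP, was at 275.9 and 265.5 CPM. Among the 7 lower genes, named after their values were seen, *Mcm2* was lowest at 98.14 and 23.45 CPM (0.239, 0.1483 to 0.3792), with ratios of 0.210 in non-cycling and 0.434 in cycling *Pdgfra*-positive cells; the others were *Mcm3*, *Mcm4*, *Cdt1*, *Fen1*, *Lig1* and *Ccne2*.

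The G2/M list was at 5842.1 CPM in control versus 4385 CPM in hypothyroid cells, a ratio of 0.7506 (0.7186 to 0.7841), with 0 of 42 genes higher and 9 lower and a median log2 ratio of -0.56. The ratio was 0.7181 in cycling *Pdgfra*-positive cells and 0.6437 in cells without a myogenic gene, but 1.11 (0.9885 to 1.25) in non-cycling myogenic cells. Divided by the median ratio of all genes, the sum ratios were 0.9133 for G2/M and 0.7576 for S phase. *Ube2c* was at 409.2 and 317.8 CPM (0.777, 0.6582 to 0.918), while *Hmgb2*, a chromatin protein, was at 668.5 and 629.5 CPM (0.942). *Cks2*, a CDK subunit, was higher in hypothyroid cells at 300 and 385.8 CPM (1.29, 1.076 to 1.545). Of the genes of the rule, *Top2a* was at 407.4 and 220.9 CPM, *Mki67* at 207.4 and 98.35 CPM, and *Birc5* at 214.8 and 238.3 CPM.

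Among cyclins, kinases and their inhibitors few genes passed 2-fold. None of 5 G1 cyclin and kinase genes did; *Ccnd1* was at 375.9 and 223.9 CPM (0.596, 0.4966 to 0.7158), *Ccnd3* at 75.92 and 42.37 CPM, and *Cdk4* at 283.3 and 276.1 CPM. *Cdk6* and *Cdk2* had ratios of 0.96 and 0.947. The list of CDK inhibitors, RB and p53 genes had a sum ratio of 0.9948 (0.914 to 1.083), with 1 of 9 genes higher and 1 lower. The higher gene was *Cdkn2a*, which encodes p16INK4a and p19ARF. It was at 55.55 CPM in control cells (30 UMIs in 14 of 26 cells) and 149 CPM in hypothyroid cells (197 UMIs in 51 of 58 cells), a ratio of 2.68 (1.821 to 4.083). Its ratio was 2.98 in non-cycling myogenic and 2.93 in cycling *Pdgfra*-positive cells of the same libraries, and 1.04 in cells without a myogenic gene. *Cdkn1a*, the p53 target p21, was at 331.5 and 418.4 CPM (1.26, 1.065 to 1.502) in cycling cells but at 672.8 and 346.4 CPM in non-cycling cells (0.515). *Cdkn1c* was at 203.7 and 247.4 CPM (1.22, 0.9757 to 1.522) in cycling cells and at 1386 and 685.9 CPM in non-cycling cells (0.495). The lower gene was *Btg2*, an antiproliferative immediate early gene, at 166.7 and 78.68 CPM (0.472), with 0.361 in cells without a myogenic gene. *Trp53* and *Mdm2* had ratios of 0.681 and 0.726, *Gadd45a* 1.10, *Cdkn1b* 1.15 and *Cdkn2d* 0.623.

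**Figure D4:**
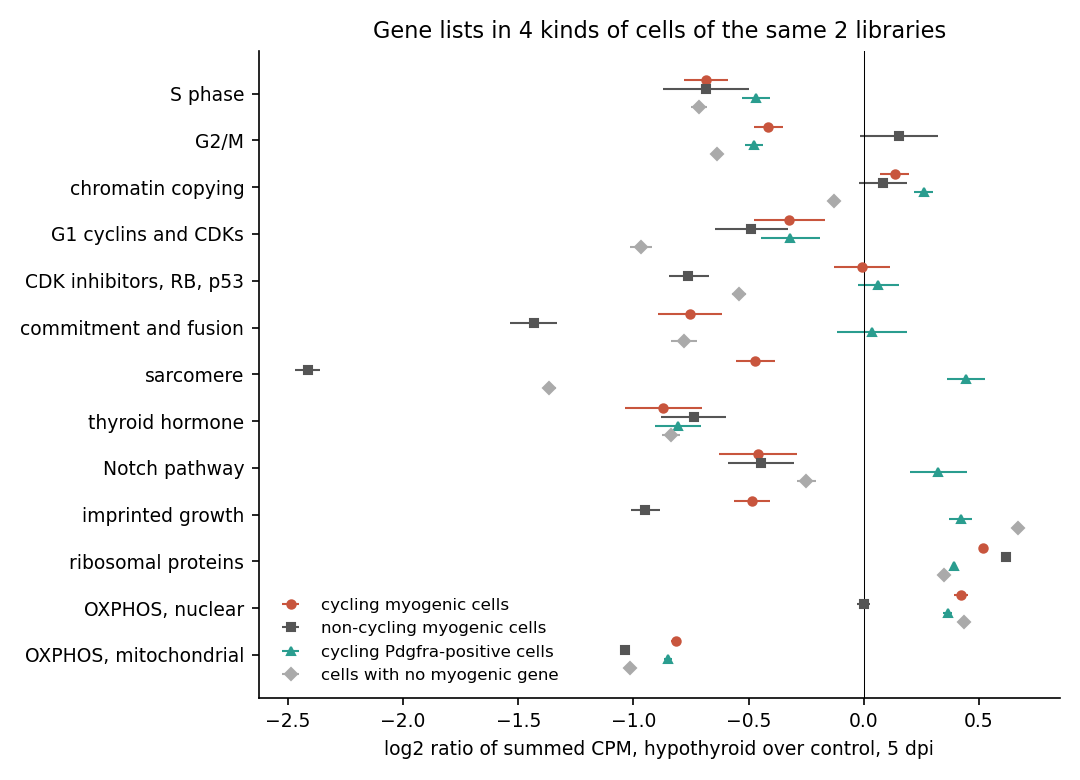
Log2 ratio of summed CPM, hypothyroid over control at 5 dpi (horizontal axis), for 13 gene lists (vertical axis) in cycling myogenic (red circles), non-cycling myogenic (dark squares), cycling Pdgfra-positive cells (green triangles) and cells without a myogenic gene (grey diamonds), 1 library per diet; bars are 95% intervals of counting error. The S-phase, thyroid hormone and mitochondrial lists are lower in all 4 kinds of cells, and the sarcomere list is lowest in the non-cycling myogenic cells.

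The myogenic regulators differed one by one. *Pax7* was at 68.51 CPM in control (37 UMIs in 12 of 26 cells) and 27.99 CPM in hypothyroid cells (37 UMIs in 23 of 58 cells), a ratio of 0.409 (0.2519 to 0.6626). *Myf5* went the other way, 79.62 CPM in control versus 114.2 CPM in hypothyroid cells (1.44, 1.016 to 2.063), and *Myod1* was at 183.3 and 67.33 CPM (0.367, 0.2727 to 0.4941). The non-cycling myogenic cells had ratios of 0.378 for *Pax7*, 1.15 for *Myf5* and 0.460 for *Myod1*. *Cdh15* (0.525), *Fgfr4* (0.509) and *Chrna1* (0.781) were lower as well. At least 2 of these 6 genes had to be present in each cell, so their levels within the pool are a description.

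Equal depth left few cells with a UMI of these genes. At 2000 UMIs per cell, *Pax7* was found in 3 of 26 control and 5 of 58 hypothyroid cycling cells, *Myod1* in 5 of 26 (19.23%, 6.555% to 39.35%) and 5 of 58 (8.621%, 2.859% to 18.98%), and *Myog* in 3 of 26 (11.54%, 2.446% to 30.15%) and 2 of 58 (3.448%, 0.4204% to 11.91%). With all UMIs, *Myog* had a UMI in 8 of 26 and 9 of 58 cells. The cells without a myogenic gene, which should lack *Myog*, had it in 0.1179% and 0.1896% at 2000 UMIs, and in 0.3965% and 0.7403% at their full median depths of 3674.5 and 7050 UMIs. The shares in cycling cells were above these, and the intervals of the diets overlapped.

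**Figure D5:**
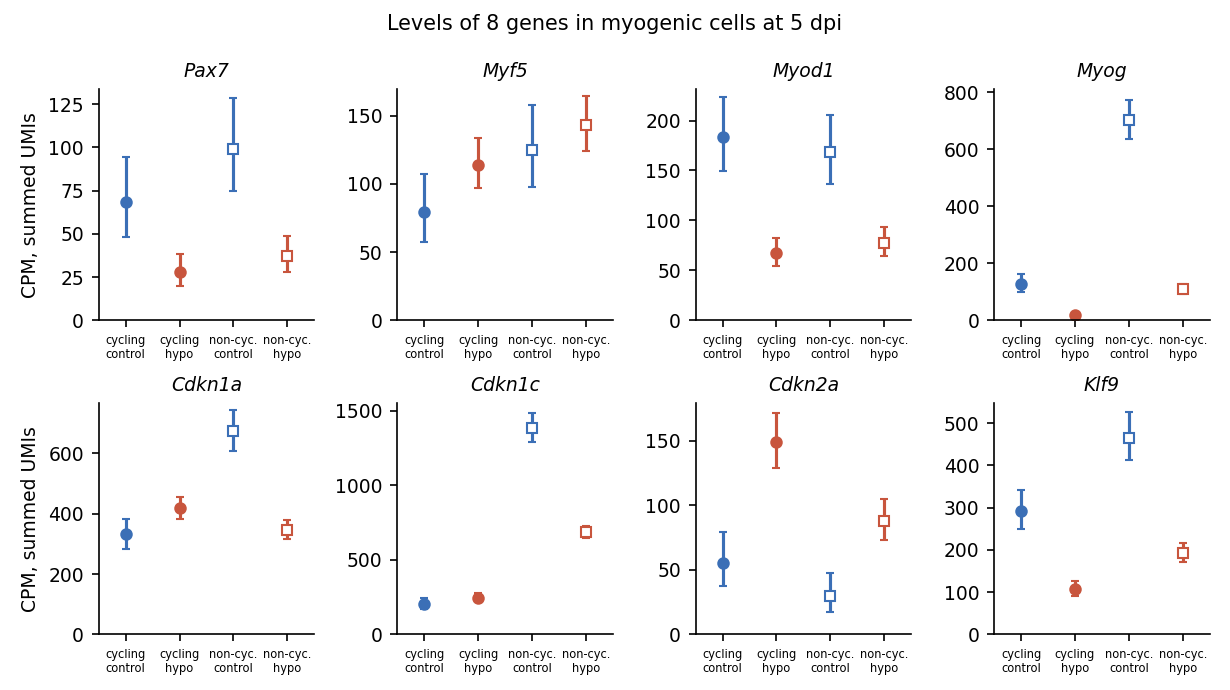
Level (CPM of summed UMIs, vertical axes from 0) of Pax7, Myf5, Myod1, Myog, Cdkn1a, Cdkn1c, Cdkn2a and Klf9 in cycling (filled circles) and non-cycling (open squares) myogenic cells at 5 dpi, control in blue and hypothyroid in red, 1 library each; bars are exact Poisson intervals of counting error. Myod1 and Klf9 are lower on the hypothyroid side of both pairs, Cdkn2a is higher, and Cdkn1a and Cdkn1c are lower in hypothyroid cells only among the non-cycling ones.

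Genes of commitment and fusion were lower in hypothyroid cycling cells, with 0 of 8 compared genes higher and 2 lower, a median log2 ratio of -0.89 and a sum ratio of 0.593 (0.5384 to 0.6534). *Myog*, the factor that starts terminal differentiation, was at 127.8 CPM in control versus 17.4 CPM in hypothyroid cells (0.136, 0.08106 to 0.2211), but 1 control cell held 63.77% of its 69 UMIs there. *Rbm24*, an RNA-binding protein of muscle differentiation, was at 151.8 CPM in control, spread over 21 of 26 cells, and 34.04 CPM in hypothyroid cells, in 28 of 58 (0.224, 0.1523 to 0.3264). *Mef2a* and *Mef2d*, partners of the myogenic factors, had ratios of 0.513 and 0.501, *Megf10* 0.572, and *Cdh2*, *Ncam1* and *Chrnb1* 0.782, 0.898 and 0.968. The fusogen genes *Mymk* and *Mymx* were near the floor in both, at 2 and 11 UMIs and at 5 and 13 UMIs. The list was also lower in non-cycling myogenic cells (0.370) and in cells without a myogenic gene (0.582), but had a ratio of 1.03 in cycling *Pdgfra*-positive cells.

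Sarcomere transcripts in cycling cells had a ratio of 0.7209 (0.6799 to 0.7645), with 6 of 12 compared genes at least 2-fold lower and none higher. *Ttn*, titin, had a ratio of 0.365, *Acta1* at 174.1 and 52.96 CPM (0.304) and *Myl1* at 94.44 and 30.26 CPM (0.320), while *Tpm1* and *Tpm2*, tropomyosins also found outside muscle, had ratios of 0.929 and 1.32. In the non-cycling myogenic cells the list ratio was 0.188, and in the cycling *Pdgfra*-positive cells 1.36. In cells without a myogenic gene the list was at 2142.2 CPM in control versus 831.8 CPM in hypothyroid muscle, so it was lower there too.

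The thyroid hormone list had a sum ratio of 0.5472 (0.4868 to 0.6153), with 0 of 6 compared genes higher and 2 lower and a median log2 ratio of -0.71. *Klf9*, a direct target of the thyroid hormone receptor, was at 292.6 CPM in control cells (21 of 26 cells) and 106.7 CPM in hypothyroid cells (38 of 58), a ratio of 0.365 (0.2885 to 0.4605). *Ncoa1*, a coactivator of nuclear receptors, was at 105.5 and 52.2 CPM (0.495, 0.3432 to 0.7152). *Thra*, the receptor TRα, was at 48.14 and 31.02 CPM (0.644, 0.3848 to 1.097), and the corepressor *Ncor1* had a ratio of 0.709 and *Med1* 0.672. The deiodinase that activates the hormone, *Dio2*, had 4 and 7 UMIs, too few to compare. The list ratio was 0.600 in non-cycling myogenic cells, 0.572 in cycling *Pdgfra*-positive cells and 0.560 in cells without a myogenic gene, so it was lower in every kind of cell read here. For *Klf9* alone these ratios were 0.413, 0.529 and 0.541.

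Notch pathway and quiescence genes were lower in part. The Notch list had a sum ratio of 0.7266 (0.6466 to 0.8172) with 2 of 9 genes lower and none higher. *Heyl*, a Notch target of muscle stem cells, was at 92.58 CPM in control (12 of 26 cells) and 18.16 CPM in hypothyroid cells (14 of 58), a ratio of 0.196 (0.1153 to 0.3252), against 0.310 in non-cycling cells and 0.325 in cells without a myogenic gene. *Hes1* was at 114.8 and 130.1 CPM and *Notch2* at 44.44 and 74.14 CPM (1.67, 1.059 to 2.727), and *Notch3* had a ratio of 0.589. The quiescence list had a ratio of 0.7437, with *Vcam1* at 235.2 and 283 CPM, *Sdc4* at 738.8 and 519 CPM and *Itga7* at 170.4 and 150.6 CPM. Growth receptor genes as a list had a ratio of 0.9439 that turned above 1 after division by the median of all genes (1.149). *Cd9*, a tetraspanin, had a ratio of 1.90 in cycling and 2.22 in non-cycling myogenic cells. *Egr1*, an immediate early gene, was at 570.3 and 307.9 CPM (0.54), whereas *Fos* was at 348.1 and 389.6 CPM and *Jun* at 420.3 and 410.8 CPM.

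Of the imprinted growth genes, 2 of 8 compared were at least 2-fold lower and none higher in hypothyroid cycling cells, *Mest* and *H19*. The sum ratio of the list was 0.715 (0.6774 to 0.7548) in cycling and 0.518 in non-cycling myogenic cells, but 1.34 in cycling *Pdgfra*-positive cells and 1.59 in cells without a myogenic gene. *Mest* was at 1502 CPM in control versus 646.1 CPM in hypothyroid cycling cells (0.43, 0.3904 to 0.4742), with ratios of 0.333 in non-cycling myogenic cells and 1.93 in cycling *Pdgfra*-positive cells. *H19*, a growth-restraining non-coding RNA named after its values were seen, was at 238.9 and 75.66 CPM (0.317, 0.2415 to 0.4145), with 0.130 in non-cycling myogenic and 1.91 in cycling *Pdgfra*-positive cells. *Peg3* had a ratio of 0.629, and *Gnas* and *Cdkn1c* 1.15 and 1.22. In non-cycling myogenic cells 5 of 9 genes were lower and none higher, while 2 of 11 were higher and none lower in cycling *Pdgfra*-positive cells, and 4 of 11 and none in cells without a myogenic gene. The difference between the kinds of cells was not tested.

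Immune transcripts were higher in hypothyroid cycling cells, and for several genes 1 cell held most UMIs. The list was at 157.4 CPM in control versus 839 CPM in hypothyroid cells (5.33, 4.273 to 6.727), with 8 of 9 genes at least 2-fold higher and none lower. *Ptprc* was at 0 in every cell because the rule required it. *Cd74*, the MHC class II chaperone, had 4 UMIs in 4 control cells and 127 UMIs in 8 hypothyroid cells, 89.76% of them in 1 cell. *Lyz2*, lysozyme of macrophages, had 7 UMIs, all in 1 control cell, and 212 in 13 hypothyroid cells, 51.89% in 1, and *Fcer1g* 61.7% of 94 UMIs in 1. *Ctsb*, cathepsin B, was present in 52 of 58 hypothyroid cells at 211.8 CPM, against 113 CPM in 21 of 26 control cells. The list ratio was 2.12 in non-cycling myogenic cells, 1.48 in cells without a myogenic gene and 0.546 in cycling *Pdgfra*-positive cells. In cells without a myogenic gene *Lyz2* had a ratio of 4.31 and *Ctsb* 2.31. Without cells of mixed markers the list ratio was 4.12 (3.194 to 5.406) with 5 of 6 genes higher; the macrophage sums given above moved with it, and their part in it was not tested. Matrix genes had a ratio of 0.7492, which moved to 0.9782 without cells of mixed markers, and *Col1a1*, of collagen I, had 77.28% of its control UMIs in 1 cell.

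Genes of protein synthesis and respiration split by genome. Ribosomal protein genes made up 175791.5 CPM in control versus 251826.1 CPM in hypothyroid cycling cells (1.43, 1.422 to 1.443), with 12 of 78 higher and 1 lower. Nuclear genes of oxidative phosphorylation had a ratio of 1.34 (1.313 to 1.369) with 8 of 82 higher and 1 lower, and the mitochondrially encoded ones 0.568 (0.5605 to 0.576) with 6 of 13 lower and 1 higher. *mt-Nd1*, a complex I subunit, was at 4600 and 1291 CPM (0.281) and *mt-Co1*, of complex IV, at 6594 and 8166 CPM (1.24). The other 3 kinds of cells had ribosomal ratios of 1.27 to 1.53 and mitochondrial ratios of 0.488 to 0.555, on the same side as the cycling cells; for the nuclear genes the non-cycling myogenic cells stood at 0.9996. Glycolysis genes had a ratio of 0.9291, which passed 1 after division by the median of all genes (1.131), with *Eno1* at 174.1 and 399.5 CPM and *Pkm* at 598.1 and 346.5 CPM.

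Genes that stood farthest from 1 in this comparison are given beside their ratios in cells without a myogenic gene. Of the higher genes, *Gstp1*, a glutathione transferase, had 3 UMIs in control versus 633 in hypothyroid cells, a ratio of 86.2 (29.37 to 419.2) against 37.8 in the cells without a myogenic gene. *Gm10076* had a ratio of 18.8 in cycling cells and 16.4 in cells without a myogenic gene, *Ube2s* 18 and 19.7, *H2ac24* 31.7 and 25.8, and *Gstp2* 37.6 and 28.6. *Ccl4*, a chemokine, had 0 UMIs in control versus 206 in hypothyroid cells, 58.74% of them in 1 cell, while *Ccl5*, *Ccl7* and *Apoe* had 78.38%, 52.34% and 71.08% in 1 cell. Of the lower genes, *Wdr89* had 0.0936 and 0.0768, *Rps27rt* 0.0711 and 0.114, *Neat1* 0.208 and 0.320, and *mt-Nd3* 0.280 and 0.289. *Myog*, *Heyl* and *Rbm24*, given above, were among the 10 lower genes, and so was *Plpp3*, at 144.4 and 24.21 CPM with 50% of its control UMIs in 1 cell. *Col4a1*, a basement membrane collagen, was at 281.5 and 51.45 CPM (0.183), and its direction turned without cells of mixed markers.

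Without the 7 control cells listed in a second file, fewer genes reached the minimum of UMIs, and 159 were higher and 393 lower in hypothyroid cycling cells. The list ratios were then 0.6824 for S phase with 5 in place of 7 genes lower, and 0.7735 for G2/M with 7 in place of 9. They were 0.6111 for imprinted genes with 3 in place of 2 genes lower, and 0.6982 for quiescence with 4 in place of 2. Commitment was at 0.5788, the sarcomere at 0.6517, Notch at 0.7461 and matrix at 0.6024. The immune list was at 4.804, immediate early genes at 0.8231 and growth receptors at 0.8644. Ribosomal protein genes were at 1.417 with 11 in place of 12 genes higher. Nuclear genes of oxidative phosphorylation were at 1.305 with 6 in place of 8 higher, and mitochondrial ones at 0.5848. The mural ratio turned from 1.042 to 0.8437. The thyroid hormone ratio was 0.5866 with 1 in place of 2 genes lower, since *Ncoa1* had a log2 ratio of -0.96, and *Klf9* was at -1.15. The ratio of the CDK inhibitor list went from 0.9948 to 1.114 (1.007 to 1.233) and that of glycolysis from 0.9291 to 1.034. *Btg2* was no longer past 2-fold (log2 ratio -0.94), and *Mdm2* turned from -0.46 to 0.29. *Cdkn2a* was at 1.25, *Cdkn1a* at 0.76, *Heyl* at -2.72, *Myog* at -2.99, *Myod1* at -1.35 and *Pax7* at -1.53 on this scale.

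At 14 dpi only 9 cells met the rule, and they can be given cell by cell. The 2 control cells held 22810 and 11901 UMIs with 14 and 6 UMIs of *Myod1*, and the first of them was a cell of mixed markers, with 6 of 6 endothelial and 5 of 6 mural markers. The 7 hypothyroid cells held 13544 to 34949 UMIs with 1, 2, 8, 53, 1, 16 and 33 UMIs of *Myod1*. *Myog* was at 0 in all 9 cells, *Pax7* had a UMI in 1 control and 3 hypothyroid cells, and *Myf5* in 1 of each. The control cells differed in their cell cycle transcripts, with G2/M sums of 1753.6 and 18569.9 CPM and S-phase sums of 2104.3 and 1680.5 CPM. The hypothyroid cells ranged from 2175.8 to 15267.7 CPM on the G2/M list and from 515 to 5960.4 CPM on the S-phase list, within the ranges seen at 5 dpi in the control cells. The median depth was 24818 UMIs in the hypothyroid cells, and their endothelial sum was 717.1 CPM, against 12.1 CPM at 5 dpi and 2477.6 CPM in the 2 control cells of 14 dpi, whose mural sum was 4494.3 CPM.

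Set against the 58 hypothyroid cells of 5 dpi, the 7 hypothyroid cells of 14 dpi had more immediate early transcripts. *Myod1* was higher too, but it and *Myf5* are genes of the rule, so their levels describe the choice. Of 3889 genes compared, 257 (6.61%) were at least 2-fold higher and 443 (11.4%) at least 2-fold lower at 14 dpi. *Myod1* was at 67.33 CPM at 5 dpi and 729.9 CPM at 14 dpi (10.8, 8.144 to 14.47). It was 16.8-fold higher without the 3 cells listed in a second file and 6.53-fold without cells of mixed markers. The 14 dpi cells with 53 and 33 UMIs of *Myod1* had a UMI of 6 and 5 of 6 endothelial markers. Only the first of them counted as a cell of mixed markers. *Myf5* was at 114.2 and 19.21 CPM (0.168, 0.03429 to 0.5009). The immediate early list was at 2808.3 and 5647.4 CPM (2.01, 1.866 to 2.165) with 6 of 12 genes higher and none lower. *Egr1* went from 307.9 to 1095 CPM and *Fos* from 389.6 to 1063 CPM, with 52.63% and 43.98% of their UMIs at 14 dpi in 1 cell. The list ratio was 1.46 without cells of mixed markers and 2.66 without cells listed in a second file.

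*Cdkn2a* was at 149 CPM at 5 dpi and 38.42 CPM at 14 dpi (0.258, 0.09346 to 0.5711), *Cdkn1c* at 247.4 and 115.3 CPM (0.466), and *Cdkn1a* at 418.4 and 486.6 CPM. The immune list was at 839 and 121.7 CPM (0.145, 0.08696 to 0.2275), all 9 genes lower. The S-phase list had a ratio of 1.38 (1.233 to 1.543), which was 0.6024 (0.4842 to 0.7414) without the 3 cells listed in a second file, so its direction rested on them. For the G2/M list the ratio was 1.08 (0.9996 to 1.167), 1.38 without those cells and 0.9699 without cells of mixed markers.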

How the data were processed

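Whole-muscle single cells of 6 libraries were analysed, 1 per diet and time, each a pool of 3 mice. The authors captured cells with a 10x 3′ kit, processed reads in Partek with Cell Ranger on the mm39 build (named in the submitters' processing notes), removed cells by their UMI and gene numbers and mitochondrial content, and deposited log2(CPM + 1) values. The deposited log2 values were turned back to CPM and then to UMIs, taking the most frequent value of a cell as 1 UMI. Per library 99.929% to 99.94% of values above 0 came out whole within 0.1, for 12436 genes. Recovered cells went past the UMI and gene limits that the paper states. Those used from control muscle at 5 dpi held up to 49806 UMIs and as few as 115 genes. Of 20269 columns, the first run of ordered barcodes in each file (11207 cells) was used and 9062 later columns were not; 0 columns of per-sample values lay outside the 6 files.

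The members and lists were chosen with earlier results of these data known. UMIs were summed per library and kind of cell. Ratios of CPM carry exact conditional binomial intervals, levels exact Poisson and shares Clopper-Pearson intervals, all 95%, and a count of 0 allows 3. With 1 library per group no test was run, so no p is given. A gene was compared with at least 50 UMIs over both pools and counted as past 2-fold. Named were the genes of the rule, compared genes of the thyroid hormone, CDK inhibitor, G1 and commitment lists, up to 4 genes of each other list with the most UMIs, and for the diet and the cycling contrasts the 10 genes each way whose interval end nearest 1 was farthest from it, with a UMI in at least 20% of cells of the higher pool. Other names were chosen after their values were seen. A few genes that this rule names are not reported here. No doublet caller was run. Alternatives covered the rule's limits, depth, scaling, the UMI minimum, later columns and mixed or shared cells; those on scaling, on shared cells and on cells with at least 5 UMIs of 2 other-type markers were chosen after seeing the data. Scripts (Python 3.11.15, numpy 2.4.6, scipy 1.17.1, pandas 2.3.3, matplotlib 3.10.9) were tested on simulated data. Promoters came from RefSeq on GRCm38.p6 and were joined by symbol.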

Additional observations from a re-analysis of the deposited data

Results flagged for a closer look

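The later columns of 4 files, which no comparison used, also held cells that met the rule. There were 3 in the file of uninjured control muscle, 5 in that of control muscle at 14 dpi, 7 in that of uninjured hypothyroid muscle and 11 in that of hypothyroid muscle at 5 dpi. The 3 and the 7 were copies of cells counted in hypothyroid muscle at 14 dpi and in control muscle at 5 dpi, whereas the first runs of both uninjured libraries held none. No replicate groups of 4 or more libraries existed in which a library could stand apart, and no difference between effects was tested.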

How the results depend on the processing

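No paired analysis was possible because each group held 1 library, and leaving out a replicate was not possible for the same reason. Of the main results recomputed, 112 moved by less than their counting interval or 1.5 times and 58 moved by more; of the named genes 533 held and 99 moved. Among named genes past 2-fold in the diet contrast, *Col4a1* changed direction, to log2 ratios of 0.1481 without cells of mixed markers and 0.04427 without cells with a UMI of at least 2 markers of another type. Of the list ratios near 1, growth receptors (1.149), glycolysis (1.131), immediate early genes (1.026) and CDK inhibitors (1.21) passed 1 when divided by the median. CDK inhibitors also did so without shared cells (1.114), without mixed cells (1.007) and without ribosomal and mitochondrial genes (1.061), growth receptors in the last of these (1.007) and without mixed cells (1.022), and glycolysis without shared cells (1.034). Directions were not counted for genes within 2-fold.

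The cycling share of myogenic cells at 5 dpi in control was 22.22% with all columns. Without cells with a UMI of 2 other-type markers the shares were 16.13% and 10.26% at 5 dpi and 0% and 4% at 14 dpi, control first. With the whole rule at 2000 UMIs they were 17.39%, 14.71% and, in control at 14 dpi, 0%, and at 1000 UMIs 13.64% and 0% at 5 dpi and 0% on both diets at 14 dpi.

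The G2/M diet ratio was 0.7922 with at least 3 cell cycle genes, 0.6898 with at least 3 myogenic genes, 0.8136 without cells with 2 other-type markers, 0.6964 without the 10% deepest cells, 0.7895 as a mean over cells, 0.8936 thinned, 0.9133 divided by the median and 0.8008 without ribosomal and mitochondrial genes. The S-phase ratio was 0.577 without mixed cells, 0.6824 without shared cells, 0.6715 as a mean over cells, 0.7035 thinned and 0.7576 divided by the median.

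The diet contrast had 157 genes higher and 476 lower, and 68 and 89 without cells with 2 other-type markers, 480 and 1017 by means of log2(CPM + 1), 316 and 1067 at a minimum of 20 UMIs, 675 and 2126 with none, 52 and 21 thinned, and 344 and 167 divided by the median. The cycling contrast, thinned, had 15 higher and 16 lower in control, 34 and 36 in hypothyroid and 5 and 4 in both. With all columns the lower counts were 293, 245 and 72, as a mean over cells the hypothyroid lower count was 247, and without shared cells 49 genes were higher in both. Settings that add or leave out cells or UMIs, or change the minimum, also change how many genes are compared. Those totals are not given, so the counts of both contrasts cannot be read as shares of a common total.

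At 5 dpi the shares of cycling cells with a UMI, at 2000 UMIs in the main values, were 46.15% for *Pax7*, 53.85% for *Myod1* and 30.77% for *Myog* in control with all UMIs, and 39.66%, 41.38% and 15.52% in hypothyroid muscle. At 1000 UMIs *Pax7* was at 0% and *Myod1* at 3.846% in control and *Pax7* at 1.724% in hypothyroid muscle, and *Myod1* was at 25% there without cells with 2 other-type markers. With 26 and 58 cells, genes under 50 UMIs could not be compared at this depth.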
